A study of Vitis amurensis with 6 samples.

Results

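The genes described here are 6 genes of the plant circadian clock, LHY, RVE1, PRR9, PRR5, GIGANTEA and TOC1, among 31845 gene identifiers measured by RNA sequencing in leaves of Vitis amurensis, a wild grape of north-east Asia known for its winter hardiness. They were chosen by identifier from a list that names them in this order, and the names were not checked against an annotation here. The cold group was 3 libraries from wild-type, 1-month-old in vitro plants held for 2 h at 4 °C in constant light of about 100 µmol per square metre and second. The control group was 3 libraries from untreated plants of the same kind kept at 26 °C in the same light. Both had been grown on B5 medium with 0.2 mg/L of IBA, an auxin, with 16 h of light and 8 h of dark a day. The labels do not tell separate plants or cultures from repeat libraries of the same material, so p-values here speak only for the spread between libraries, which may be technical.

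The plant clock is a loop of transcription factors that repress each other in turn over the day. In Arabidopsis, LHY and its relatives peak around dawn and hold back genes of the evening, and the pseudo-response regulators then follow in sequence, PRR9 in the morning, PRR5 in the afternoon and TOC1 in the evening, each repressing LHY. GIGANTEA, a large plant protein that stabilises an F-box protein which marks TOC1 for breakdown, peaks late in the day. Clock genes also gate how strongly leaves of Arabidopsis respond to cold. The hour of sampling is not given in the labels, nor whether the control plants were sampled before or alongside the chilled ones. The 2 h that passed, the transfer to another incubator and the temperature therefore cannot be told apart, and morning and evening genes are set side by side.

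The deposited values are FPKM, reads scaled to gene length and library size, so that levels can be set between genes. Comparisons between libraries also depend on the choice of scaling. The median log2 change of all tested genes, cold minus control, was 0.08 as deposited and 0.0008 under median-of-ratios scaling. Library totals implied by these values ran from 18773557 to 21217704 reads in cold and from 16437001 to 16657708 reads in control, and the 6 genes had between 167 and 66263 reads in a library. On the second principal component of all 17155 tested genes, which carried 14.2% of the variance, cold libraries 1, 2 and 3 lay at -14.7, -0.32 and 15.3, control library 1 at 39.1 and control libraries 2 and 3 at -16.6 and -22.7. On the first component, which carried 72.8% of the variance, cold libraries 1, 2 and 3 lay at 54.7, 51.1 and 39.3. Control libraries 1, 2 and 3 lay there at -44.9, -49.9 and -50.4. Control library 1 thus lay apart on the second component and cold library 3 on the first. Results that rest on control library 1 or cold library 3 are given also without them. Leaving out both together was chosen after the data were seen. The tissue could not be set against leaf marker genes, since the file does not pair identifiers with names.

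After 2 h of chilling the dawn genes LHY and RVE1 were lower, the pseudo-response regulators PRR9 and PRR5 were higher, and the evening genes GIGANTEA and TOC1 did not pass the test. Of the 6 genes, all of which passed the filter of a mean of at least 1 FPKM, 2 were called higher and 2 lower (limma-trend on log2(FPKM + 1), Benjamini-Hochberg adjusted p under 0.05 over all tested genes). Over all tested genes 21.0% were called higher and 13.4% lower, 34.4% together, so that 4 calls among 6 genes stand beside a broad response of the leaf. Higher genes made up 61.1% of these calls, a share that was 45.5% under quantile normalization and 49.0% under median-of-ratios scaling. The median size of the log2 change, sign aside, was 0.55 for the 6 genes and 0.28 for all tested genes. The largest of the 6 changes, that of PRR9, was 0.89 on the log2 scale and so under 2-fold. Of the tested genes, 9.65% were called with a change of at least 2-fold, and 12.6% had a larger log2 change than PRR9, sign aside. In whole leaves, fewer cells that express a gene and less RNA per cell cannot be told apart.

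**Figure D1:**
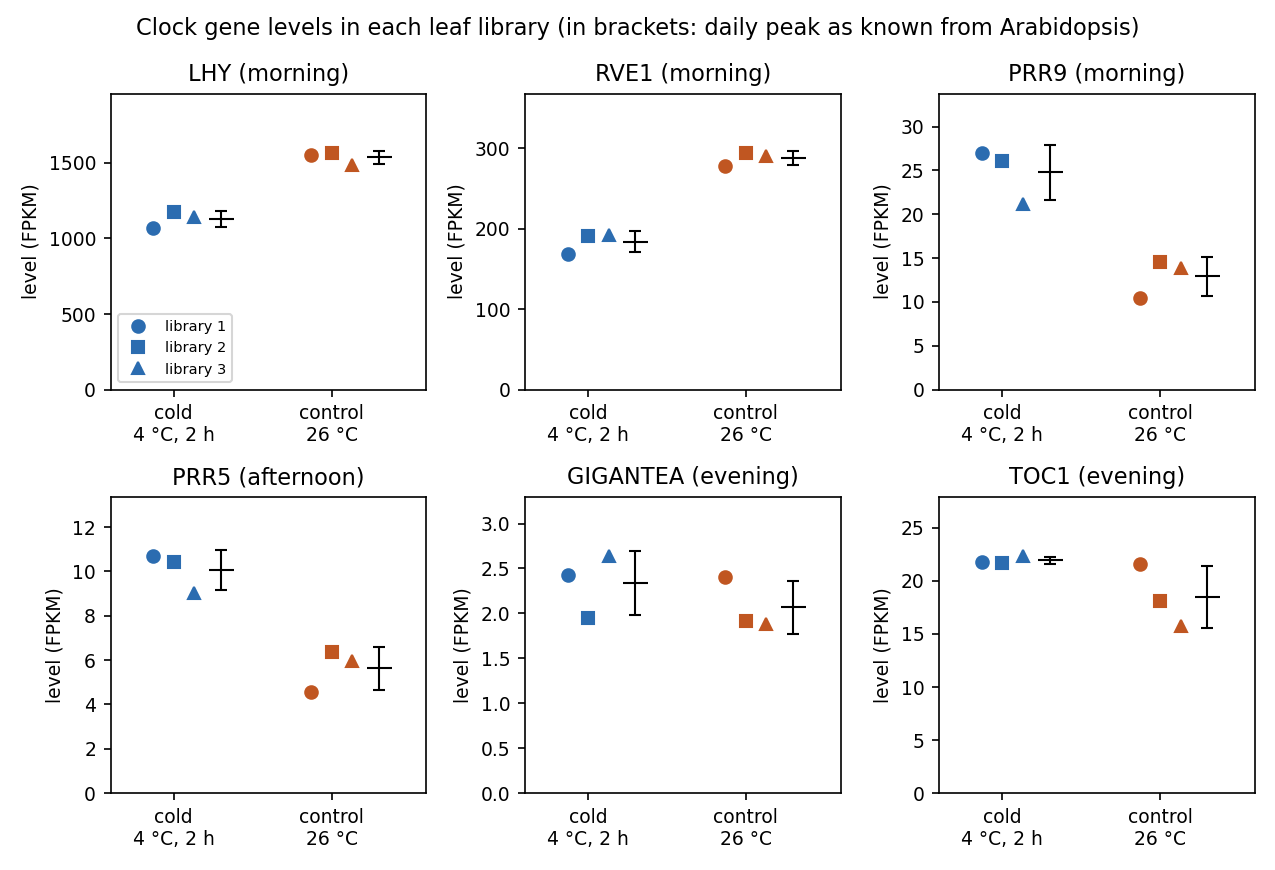
Level of each clock gene in FPKM (vertical axis, from 0) in each library of the cold and control groups; each marker is a library and the black bar is the mean with its SD over 3 libraries. LHY and RVE1 lie lower in cold, PRR9 and PRR5 lie higher, and GIGANTEA overlaps between groups.

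LHY (VIT_215s0048g02410), a MYB-type repressor at the centre of the clock, was the most abundant of the 6 genes. It stood at 1067, 1172 and 1143 FPKM in cold libraries 1, 2 and 3, against 1550, 1566 and 1488 FPKM in control libraries 1, 2 and 3. The lowest control library was above the highest cold library. By mean level it ranked 23rd among the 17155 tested genes in cold and 20th in control, and its reads made up 0.289% ± 0.0140 of a cold library and 0.394% ± 0.0106 of a control library (SD, 3 libraries each). The mean fell by 26.5% to 1127 ± 54.4 FPKM in cold, against 1535 ± 41.4 FPKM in control (SD, n = 3 each). The log2 change was -0.45 ± 0.10 (limma-trend, SE, adjusted p = 0.016).

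The LHY call was close to the threshold and was lost under 6 of 16 alternatives, 5 of which follow here. Its own libraries gave a standard error of 0.046, smaller than the 0.10 of limma-trend, which draws the spread of a gene towards that of genes at its level. Quantile normalization, which forces the most abundant genes of every library onto common values, left a log2 change of -0.15 (limma-trend, adjusted p = 0.36). With no filter on low values the change stayed at -0.45 with an adjusted p of 0.11 by limma-trend. The call was also lost without cold library 1 (-0.41, limma-trend adjusted p = 0.066), without cold library 2 (-0.47, adjusted p = 0.053) and without control library 2 (-0.43, adjusted p = 0.068). Over its 16 alternatives the adjusted p ran from 0.0035 to 0.36, and the sign was negative in each.

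RVE1 (VIT_204s0079g00410), a MYB-type factor related to LHY that in Arabidopsis links the clock to auxin production, also fell. Its level was 169, 191 and 192 FPKM in cold libraries 1, 2 and 3, against 278, 295 and 291 FPKM in control libraries 1, 2 and 3. The groups were well apart, with 85.8 FPKM between the nearest libraries of cold and control. The mean fell by 36.1% to 184 ± 13.0 FPKM in cold, against 288 ± 8.92 FPKM in control (SD, n = 3 each), and limma-trend gave a log2 change of -0.65 ± 0.09 (SE, adjusted p = 0.0024). This call held in all 16 alternatives, with log2 changes between -0.74 and -0.59 and a highest adjusted p of 0.016. As LHY and RVE1 belong to one gene family, their values are uncertain to the extent that reads matching both were counted, for which the sources used here give no rule.

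PRR9 (VIT_215s0048g02540), which in Arabidopsis is the earliest pseudo-response regulator of the day and represses LHY, rose. It stood at 27.0, 26.1 and 21.2 FPKM in cold libraries 1, 2 and 3, against 10.4, 14.5 and 13.9 FPKM in control libraries 1, 2 and 3. Each cold library was above each control library, with the smallest cold value in library 3 and the smallest control value in library 1. The mean was 24.8 ± 3.12 FPKM in cold and 12.9 ± 2.21 FPKM in control (SD, n = 3 each), a ratio of 1.91. Its log2 change was 0.89 ± 0.15 (limma-trend, SE, adjusted p = 0.0055).

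PRR5 (VIT_216s0098g00900), a later member of the same family, rose by a similar ratio from a lower level. It had 10.7, 10.4 and 9.01 FPKM in cold libraries 1, 2 and 3, against 4.54, 6.38 and 5.97 FPKM in control libraries 1, 2 and 3. Again no library of one group overlapped the other. Mean levels were 10.04 ± 0.903 FPKM in cold and 5.63 ± 0.966 FPKM in control (SD, n = 3 each), a ratio of 1.78, and the log2 change was 0.74 ± 0.13 (limma-trend, SE, adjusted p = 0.0073). The calls of PRR9 and PRR5 held in all 16 alternatives each. Their log2 changes ran from 0.75 to 1.00 and from 0.62 to 0.84, with highest adjusted p-values of 0.028 and 0.035 by limma-trend.

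GIGANTEA (VIT_218s0157g00020) was the least abundant of the 6 genes and its groups overlapped. Its level was 2.42, 1.94 and 2.64 FPKM in cold libraries 1, 2 and 3, against 2.41, 1.92 and 1.88 FPKM in control libraries 1, 2 and 3. Between 203 and 300 reads per library lay behind the cold values and between 167 and 215 behind the control values. The means were 2.33 ± 0.354 FPKM in cold and 2.07 ± 0.294 FPKM in control (SD, n = 3 each). The log2 change of 0.12 had a 95% interval from -0.21 to 0.45 (limma-trend, adjusted p = 0.54), so a rise or fall within these bounds is not excluded. The sign turned under quantile normalization, which gave -0.04, and stayed positive under median-of-ratios scaling, which gave 0.05.

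TOC1 (VIT_217s0000g06570), the evening member of the pseudo-response regulator family, had close values in the 3 cold libraries and variable ones in control. Its level was 21.8, 21.7 and 22.3 FPKM in cold libraries 1, 2 and 3, against 21.6, 18.1 and 15.8 FPKM in control libraries 1, 2 and 3. The groups just failed to overlap, control library 1 lying 0.118 FPKM under the lowest cold library. The means were 21.9 ± 0.340 FPKM in cold and 18.5 ± 2.91 FPKM in control (SD, n = 3 each), and the log2 change was 0.25 ± 0.12 (limma-trend, SE, adjusted p = 0.15). The size of the change depended on scaling, at 0.16 under median-of-ratios scaling (limma-trend, adjusted p = 0.33) and 0.15 under quantile normalization (limma-trend, adjusted p = 0.32). The call also depended on control library 1 and on library weights. Leaving out control library 3 lowered the log2 change without altering the call. Without control library 1 the log2 change was 0.36 (limma-trend, adjusted p = 0.017), without control library 3 it was 0.14 (adjusted p = 0.35), with library weights it was 0.30 (adjusted p = 0.018), and without both control library 1 and cold library 3 it was 0.35 (adjusted p = 0.030). Over its 16 alternatives the adjusted p ran from 0.017 to 0.35, with a positive sign in each.

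In 5 of the 6 genes, all but GIGANTEA, the cold libraries lay all above or all below the control libraries, as was the case for 51.4% of all tested genes. For these 5 genes the two-sided exact permutation p of a single gene was 0.1, the smallest that 3 libraries against 3 can give, and for GIGANTEA it was 0.2.

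**Figure D2:**
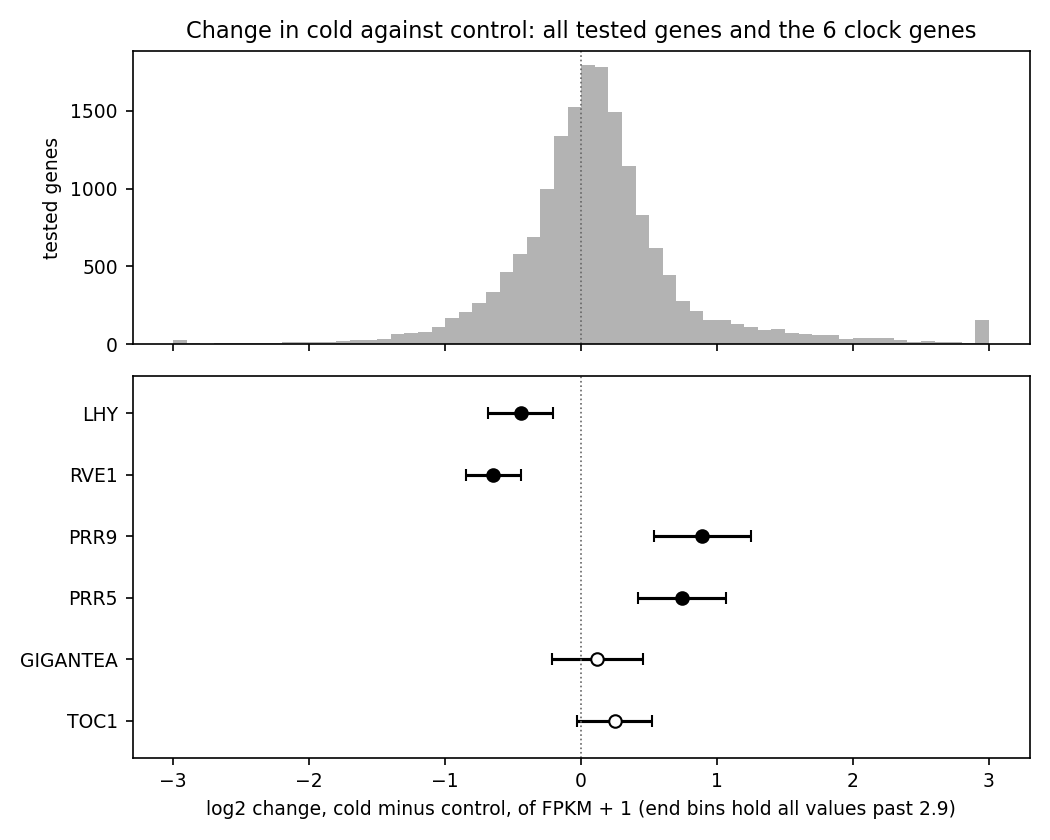
Upper panel, number of tested genes by log2 change of FPKM + 1, cold minus control, with values past 2.9 gathered in the end bins; lower panel, the change of each clock gene with its 95% interval from limma-trend, filled where adjusted p was under 0.05. RVE1 at -0.65 and LHY at -0.45 lie left of 0, PRR5 at 0.74 and PRR9 at 0.89 lie right of it, and the intervals of GIGANTEA and TOC1 include 0.

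With the genes grouped by the time of day at which they are known to peak in Arabidopsis, the morning genes did not all change in the same direction. Of the morning genes LHY and RVE1 fell while PRR9 rose, and the afternoon gene PRR5 rose with PRR9. Of the evening genes neither passed the test. Among all tested genes, 8.12% had a lower log2 change than RVE1 and 13.5% a lower one than LHY, while 91.8% had a lower one than PRR9 and 89.7% a lower one than PRR5. The changes of GIGANTEA and TOC1 lay near the middle of the distribution, with 54.3% and 66.9% of tested genes below them.

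Levels were spread widely in both groups, and the order of the genes by level differed at a single place. In cold the order from high to low was LHY, RVE1, PRR9, TOC1, PRR5 and GIGANTEA, and in control TOC1 stood above PRR9. PRR9 and TOC1 were also the only neighbours in either order whose libraries overlapped, which they did in cold, where mean PRR9 was 1.13 times mean TOC1. In control mean TOC1 was 1.43 times mean PRR9, with no overlap. LHY was 6.13 times RVE1 in cold and 5.33 times RVE1 in control by mean FPKM. The evening genes stood at different places in this order, GIGANTEA last in both groups and TOC1 above PRR5 in both.

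Ratios of FPKM taken within a library are unchanged by any common factor applied to that library, though not by quantile normalization. LHY stood at 48.9, 54.1 and 51.2 times TOC1 in cold libraries 1, 2 and 3, against 71.9, 86.6 and 94.2 times in control libraries 1, 2 and 3. On the log2(FPKM + 1) scale the mean ratio was 5.62 ± 0.0724 in cold and 6.31 ± 0.188 in control (n = 3 each, SD), a difference of -0.69, which was -0.30 under quantile normalization. PRR9 stood at 1.24, 1.20 and 0.950 times TOC1 in cold, against 0.483, 0.804 and 0.879 times in control. The log2 ratio averaged 0.16 ± 0.201 in cold and -0.48 ± 0.436 in control (n = 3 each, SD), a difference of 0.65. That difference was 0.40 without control library 1, whose ratio was the lowest of the 6.

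The ratio of PRR9 to LHY, which PRR9 represses in Arabidopsis, was 1 of 5 ratios computed among the 6 genes and was chosen after the data were seen. Its log2 value was -5.25, -5.44 and -5.69 in cold libraries 1, 2 and 3, against -7.09, -6.66 and -6.64 in control libraries 1, 2 and 3. The difference of the means was 1.34, between 1.19 and 1.45 with any 1 library left out, and 0.94 under quantile normalization. These ratios combine genes whose own changes are given above and are descriptions with no test. The ratios of PRR9 to PRR5 and of LHY to RVE1 were likewise chosen after the data were seen.

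**Figure D3:**
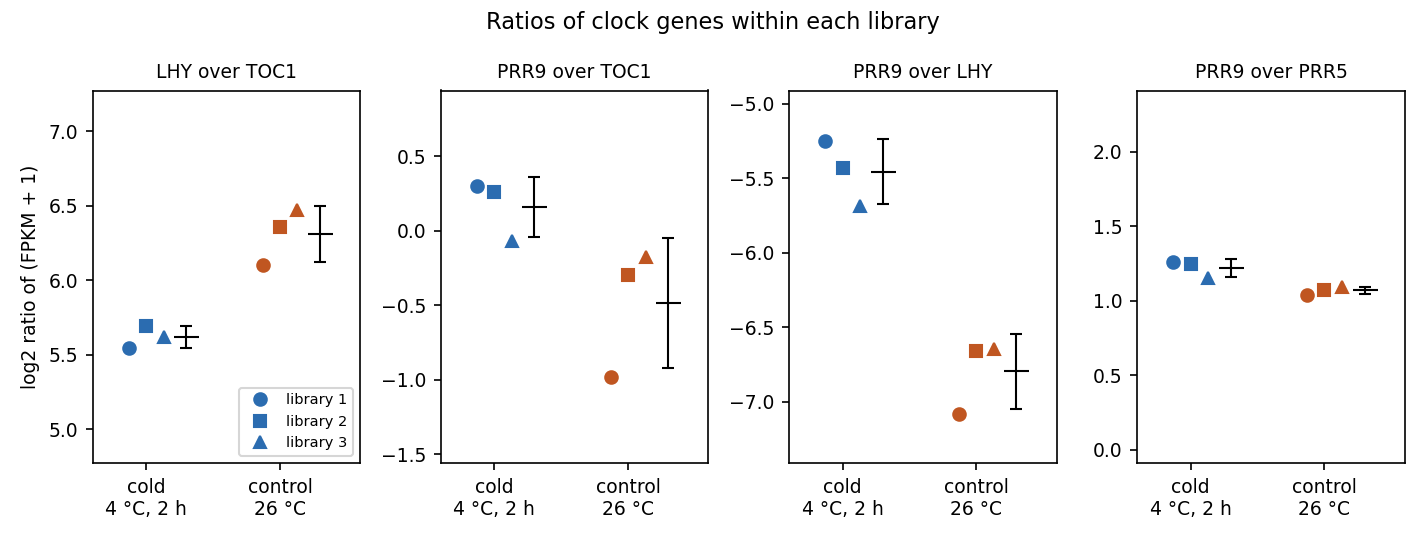
Log2 ratio of FPKM + 1 between pairs of clock genes within each library, with every panel spanning the same range and not starting at 0; markers are libraries and the black bar is the mean with its SD over 3 libraries. The cold and control libraries are apart in all 4 panels, with means differing by 1.34 for PRR9 over LHY and by 0.15 for PRR9 over PRR5. With 0.1 FPKM added in place of 1 these differences were 1.38 and 0.10.

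PRR9 and PRR5 kept close proportion to each other in all 6 libraries. PRR9 was 2.53, 2.50 and 2.35 times PRR5 in cold libraries 1, 2 and 3, against 2.29, 2.28 and 2.32 times in control libraries 1, 2 and 3. Over the 6 libraries the Pearson correlation of their log2(FPKM + 1) values was 0.998. Among the 17154 other tested genes, PRR9 was the gene most like PRR5, and PRR5 the 2nd most like PRR9. This likeness is a description over 6 libraries. With group means removed the correlation was 0.989, and PRR5 then ranked 32nd in likeness to PRR9, and PRR9 ranked 34th in likeness to PRR5.

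In each group a single library held the lowest values of PRR9 and PRR5 and the highest values of GIGANTEA and TOC1. In cold, library 3 held the lowest PRR9 and PRR5 and the highest GIGANTEA and TOC1. In control, library 1 held the lowest PRR9 and PRR5 and the highest GIGANTEA and TOC1. These are the cold and the control library that lay highest on the second principal component of all tested genes, and the part of that shared variation in the clock gene values was not tested. With group means removed, GIGANTEA correlated at -0.79 with PRR9 and at 0.67 with TOC1 over the 6 libraries. Among the 17154 other tested genes, TOC1 then ranked 2449th in likeness to GIGANTEA and PRR9 ranked 16495th, so many genes had values as strong. LHY and RVE1 were both lowest in cold library 1 and highest in control library 2, and in control RVE1 had the same order of libraries as PRR9 and PRR5.

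The spread within groups also differed between the genes. In cold, TOC1 was among the steadiest genes, with a smaller SD of log2(FPKM + 1) in 2.87% of tested genes. The share was 24.2% for LHY, 42.0% for RVE1, 50.3% for PRR5 and 70.8% for PRR9. In control it was lowest for LHY, at 6.16%, and RVE1, at 8.02%, against 66.0% for TOC1, 67.0% for PRR5 and 70.8% for PRR9. The coefficient of variation of TOC1 in cold was 1.55%, under the 2.11% that counting error alone would give. So small a spread over 3 libraries cannot be taken as a trait of the gene. In control the coefficient of variation of TOC1 was 15.7%, where counting error alone would give 2.52%. For GIGANTEA counting error alone would give 6.34% in cold and 7.38% in control, against measured values of 15.2% and 14.2%.

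Without control library 1 and cold library 3 together, a choice made after the data were seen, the 6 genes gave 3 calls higher and 2 lower by limma-trend. The log2 changes were then -0.45 for LHY, -0.70 for RVE1, 0.86 for PRR9, 0.69 for PRR5, 0.13 for GIGANTEA and 0.35 for TOC1.

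LHY and PRR9 carry the same chromosome field, 15, and the same scaffold field, 0048, in their identifiers, which were read from the names and not from a genome. They moved in opposite directions, and the 10 identifiers numbered between them did not move as a block. Of these, 5 passed the filter, 1 of which was called higher and 2 lower, with log2 changes from -1.18 to 0.53. The other 5 were under the filter, with at most 0.687 FPKM in any library. On the whole scaffold field, 34 of 171 tested genes were called higher and 26 lower, 35.1% together, beside the 34.4% of all tested genes.

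**Figure D4:**
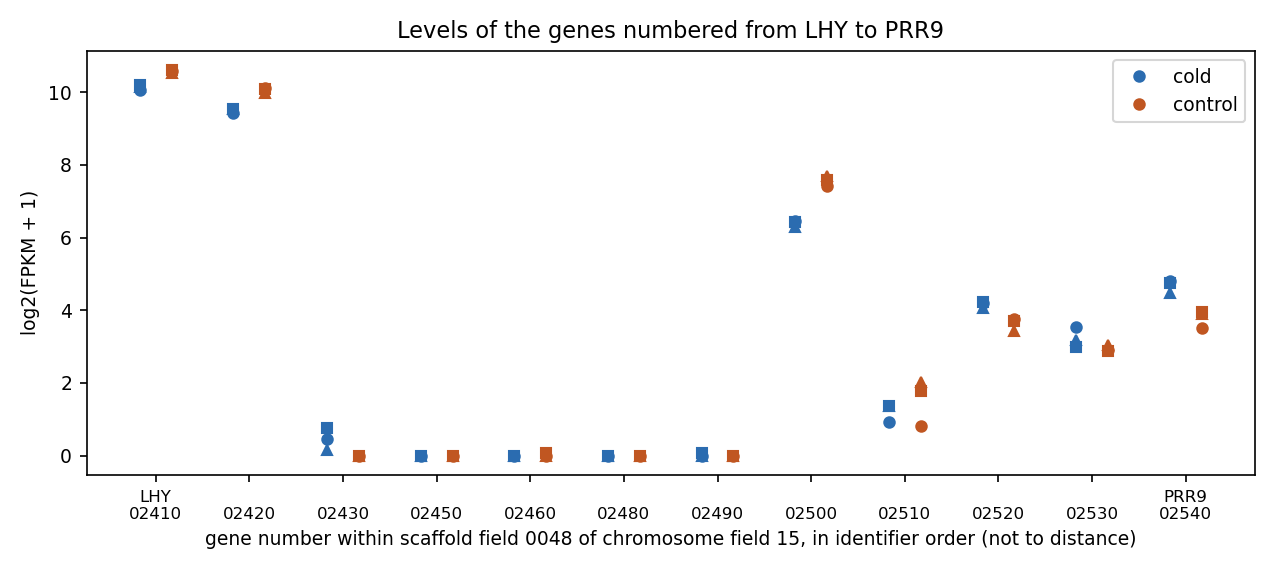
Level as log2(FPKM + 1) of the 12 genes numbered from LHY to PRR9, in identifier order and not to distance, with cold libraries left of control libraries for each gene and marker shapes standing for libraries 1 (circle), 2 (square) and 3 (triangle). LHY and its next neighbour are high in both groups and lower in cold, 5 genes lie at or near 0, and PRR9 is higher in cold.

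The gene most like LHY over the 6 libraries was VIT_206s0080g00280, with a Pearson correlation of 0.999, at a far lower level. It averaged 0.690 ± 0.131 FPKM in cold and 1.91 ± 0.191 FPKM in control (SD, n = 3 each), so that it passed the filter of 1 FPKM through its control level. Since the choice by likeness fixes how such a gene differs between the groups, these levels are a description with no test. The gene most like TOC1 was VIT_203s0063g00600, with a correlation of 0.996. It averaged 13.3 ± 0.188 FPKM in cold and 11.0 ± 2.25 FPKM in control (SD, n = 3 each) (log2 difference 0.27, likewise a description). No name is paired with these identifiers in the file.

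**Figure D5:**
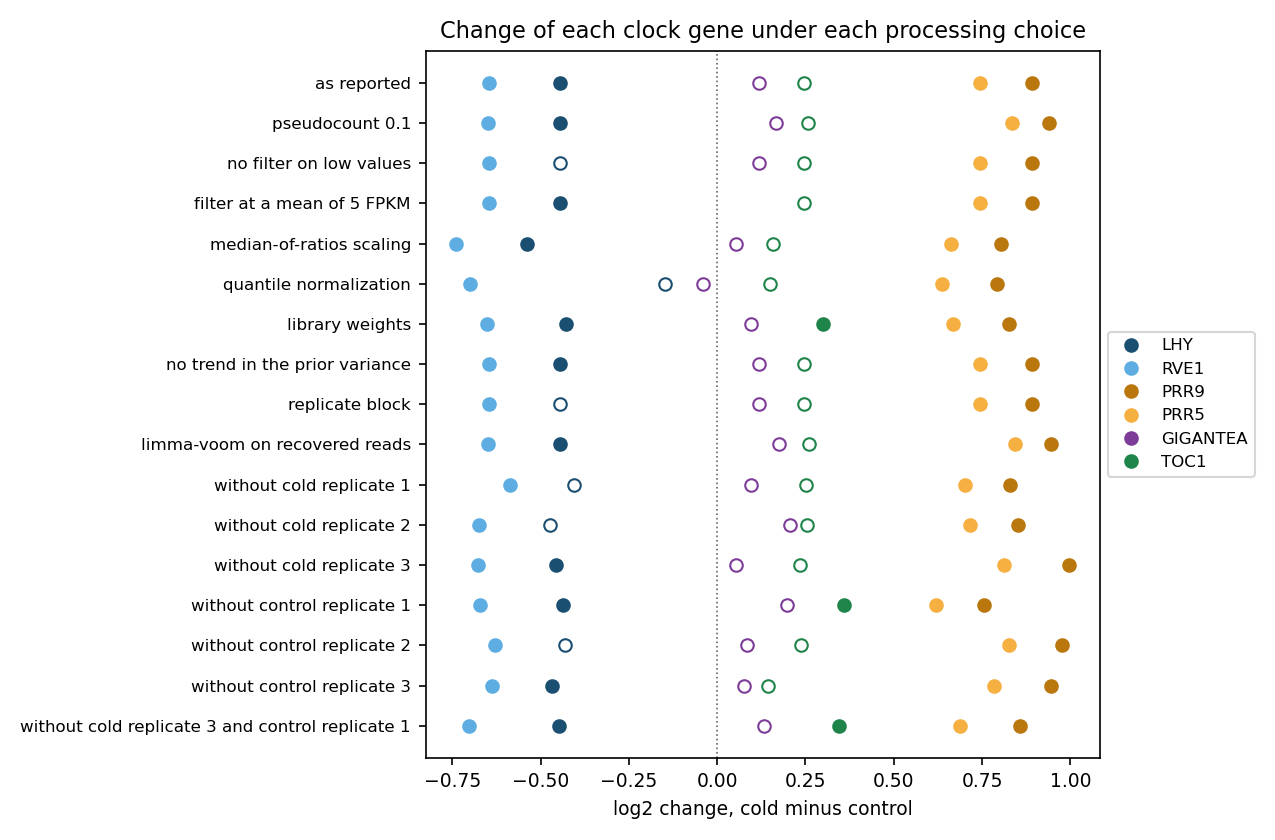
Log2 change of each clock gene, cold minus control (horizontal axis), as reported and under each other processing choice (rows), filled where the adjusted p was under 0.05. RVE1, PRR9 and PRR5 are filled in every row, LHY lies at -0.15 under quantile normalization, and TOC1 is filled with library weights and in both rows that leave out control replicate 1; GIGANTEA has no value at a minimum mean of 5 FPKM.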

How the data were processed

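The authors deposited one table of FPKM values for 31845 gene identifiers in 6 libraries, and its columns carry the sample titles. Per the submitters' processing notes, the tools were cutadapt, FastQC, HTSeq, STAR and DESeq2, with no versions or roles named; for the genome build, annotation, counting mode and strand setting the sources used here give nothing. The members and lists were chosen with earlier results of these data known.

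The comparison, cold minus control, was made with limma-trend on log2(FPKM + 1). Tested were the 17155 genes averaging 1 FPKM or more across the 6 libraries, and two-sided p-values were adjusted by Benjamini-Hochberg over all of these, with calls made under 0.05. The added 1 makes changes of low genes look smaller. Whole reads were recovered from the steps of the FPKM values for 25054 of 25054 genes above 0, within 0.001 reads, and gave depths, read numbers and a limma-voom alternative. Counting errors cover reads only. The fit and the recovery were tested on simulated data. Genes named are the 6 clock genes, the gene most like LHY and the gene most like TOC1; any other is said to be chosen after its values were seen. Lists of further clock genes, of clock outputs and of cell type markers, and the promoter motifs, could not be used, since the file does not pair identifiers with names and no sequence was given. Fits were run in R 4.3.3 with limma 3.58.1, and other steps in Python 3.11.15 with pandas 2.3.3, numpy 2.4.6 and matplotlib 3.10.9.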

Additional observations from a re-analysis of the deposited data

How the results depend on the processing

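Of 199 recomputed values, 177 kept their direction and side of the threshold or lay within the spread or 1.5 times. LHY lost its call with no filter (log2 change -0.45), quantile normalization (-0.15) and the replicate block (-0.45, limma-trend adjusted p = 0.079), and 1 of the 6 genes was then called lower in each. Under quantile normalization GIGANTEA turned to -0.041 and the log2 ratio of LHY over TOC1 differed by -0.30. TOC1 was called with library weights (0.30) and without control replicate 1 and cold replicate 3 (0.35). With library weights 3549 of all tested genes were called lower. For these, the cause was not tested. With a library left out in turn, log2 changes were -0.47 to -0.41 for LHY, -0.68 to -0.59 for RVE1, 0.75 to 1.00 for PRR9, 0.62 to 0.83 for PRR5, 0.05 to 0.21 for GIGANTEA, 0.14 to 0.36 for TOC1, 2 to 3 genes called higher and 1 to 2 lower, and 2253 to 4180 higher and 1425 to 2746 lower among all tested genes, with the low ends of both without cold replicate 2. The median log2 change of all tested genes was 0.08 as deposited and -0.03 after quantile normalization, against which the LHY value of -0.15 and the GIGANTEA value are to be read. Deviations of libraries with the same replicate number correlated at -0.26, -0.13 and -0.28, which shows no pairing. With 3 libraries in each group these values cannot exclude a pairing. GIGANTEA was not tested at a minimum mean of 5 FPKM.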

Other observations

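The gene numbered next to LHY, VIT_215s0048g02420, was chosen after its values were seen. It is abundant but less so than LHY, 45th among the tested genes by mean level, and carries no name in the file. Its level was 684, 744 and 741 FPKM in cold libraries 1, 2 and 3, against 1106, 1090 and 1019 FPKM in control libraries 1, 2 and 3. Every cold library was lower than every control library, while 51.4% of all tested genes had groups apart in 1 direction or the other. The log2 difference was -0.57, a description with no test because of how the gene was chosen. LHY stood at 1.56 ± 0.0160 times this gene in cold and 1.43 ± 0.0291 times in control (SD over 3 libraries), so the pair kept a narrow ratio within each group while the ratio itself did not overlap between groups. By Pearson correlation over the 6 libraries it was the 4th most like LHY of the 17154 other tested genes. Both values are uncertain if the neighbouring gene models overlap, which the file does not show.

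Of the dawn genes, LHY fell by less than RVE1 in these libraries, a description with no test. Their ratio was chosen after the data were seen. LHY was 6.32, 6.15 and 5.96 times RVE1 in cold libraries 1, 2 and 3, against 5.58, 5.32 and 5.11 times in control libraries 1, 2 and 3. The log2 ratio was higher by 0.20 in cold, by 0.17 to 0.23 with any 1 library left out, and by 0.55 under quantile normalization. With group means removed, LHY and RVE1 correlated at 0.74 over the 6 libraries. Among the 17154 other tested genes, RVE1 then ranked 1049th in likeness to LHY, and LHY ranked 1370th in likeness to RVE1.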
